A study of Mus musculus with 6 samples.

Results

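The expression of 34 genes of glycolysis, lactate handling and the hypoxia response was compared in infarct tissue of mice treated with LGK974 or with DMSO. The genes were chosen by name from the pathway and its hypoxia-inducible partners, and all 34 were found among the 36047 genes joined to the GRCm38 annotation. All 34 also passed the filter on low counts that left 20094 genes for testing. Each of the 6 libraries came from the infarct area of a C57BL6 heart, taken 48 h after ischemia/reperfusion (I/R) injury at an age of 12 weeks, and the 2 groups held 3 libraries each. The study used female mice with a transient ligation of the left coronary artery. LGK974, given by gavage after surgery and then daily, blocks Porcupine, the enzyme that adds the lipid without which Wnt proteins are not secreted, and the control mice received the DMSO vehicle on the same schedule. All animals had been injured, so the comparison measures the effect of the drug on infarct tissue and not the effect of I/R injury. The sample labels number the libraries 1 to 3 in each group without naming animals, and p-values measure the spread between these libraries.

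Glycolysis splits glucose into pyruvate and yields ATP without oxygen. The healthy heart burns mainly fatty acids and depends on glycolysis more when perfusion fails. Several steps are run by alternative isoforms. One is made mostly by heart and skeletal muscle, or for lactate dehydrogenase by the heart. Another is made by most other cells, including leukocytes and fibroblasts that enter an infarct. When oxygen is short, HIF-1α escapes degradation, pairs with its partner ARNT and activates glucose transporters, glycolytic enzymes and genes such as Bnip3 and Egln3 by binding short DNA elements with the core ACGTG or GCGTG.

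The libraries held 41579787 to 80398211 estimated counts, of which mitochondrial genes took 28.2 to 53.7%. DMSO replicate 1 stood apart from the other libraries. On the first principal component, which held 63.7% of the variance, it scored 173 while the other 5 libraries lay between -91.7 and 45.2. It also held counts in 98.8% of 1780 olfactory, vomeronasal and taste receptor genes, which heart tissue is not known to use, against 52.5 to 82.6% in the others. Among the DMSO libraries it had the lowest level of 21 of the 34 genes, including all 7 that were higher with LGK974 at an unadjusted p under 0.05. The genes under that threshold, the ratios, the lists and many other values are therefore given with and without it. The plot of fold changes shows both for all 34.

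In infarct tissue of LGK974-treated mice 4 of the 6 general isoforms of glycolysis were higher than in controls at an unadjusted threshold, 0 of the 5 muscle isoforms differed at it, and 0 of the 34 genes passed the adjusted threshold. The glucose transporter Slc2a1, the hexokinases Hk2 and Hk3, the phosphofructokinase Pfkp, the mutase Pgam1, the enolase Eno1 and the oxygen sensor Egln3 were higher at an unadjusted p under 0.05 by edgeR's quasi-likelihood test, and the mitophagy gene Bnip3 was lower. These are 7 higher and 1 lower of 34 genes, against 6.26% higher and 7.18% lower of all 20094 genes tested. After Benjamini-Hochberg adjustment over all genes 0 of the 34 passed, as did 0.0% of all genes, and the smallest adjusted p of the 34 was 0.368. DESeq2 called 1 of the 34, Pgam1, at an adjusted p of 0.0356, beside 1.23% of all genes, and limma-voom called 0. The paper, which used DESeq2, reported differentially expressed genes between these groups, and its threshold for them is not stated. Without DMSO replicate 1, 6 genes were higher and 1 was lower at an unadjusted p under 0.05, against 6.67% and 3.35% of all genes, and 0 of the 34 passed the adjusted threshold, as did 0.00995% of all genes. The ranges of the groups did not overlap for 9 genes, 8 of them higher with LGK974 and 1 lower, where 10.7% and 7.27% of all genes behaved so. The log2 fold change was positive for 18 of the 34 genes and negative for 16, where 8130 of all genes were positive and 11964 negative. With libraries scaled to their totals without mitochondrial genes 24 of the 34 were positive and 10 negative. Those under the unadjusted threshold were then 8 higher and 0 lower. The median of all genes also rose in that setting, to 0.08, and the share of all genes called in it is not given here. The median log2 fold change of the 34 was 0.09, and that of all tested genes was -0.13. With DMSO replicate 1 left out these medians were 0.09 and -0.03.

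**Figure D1:**
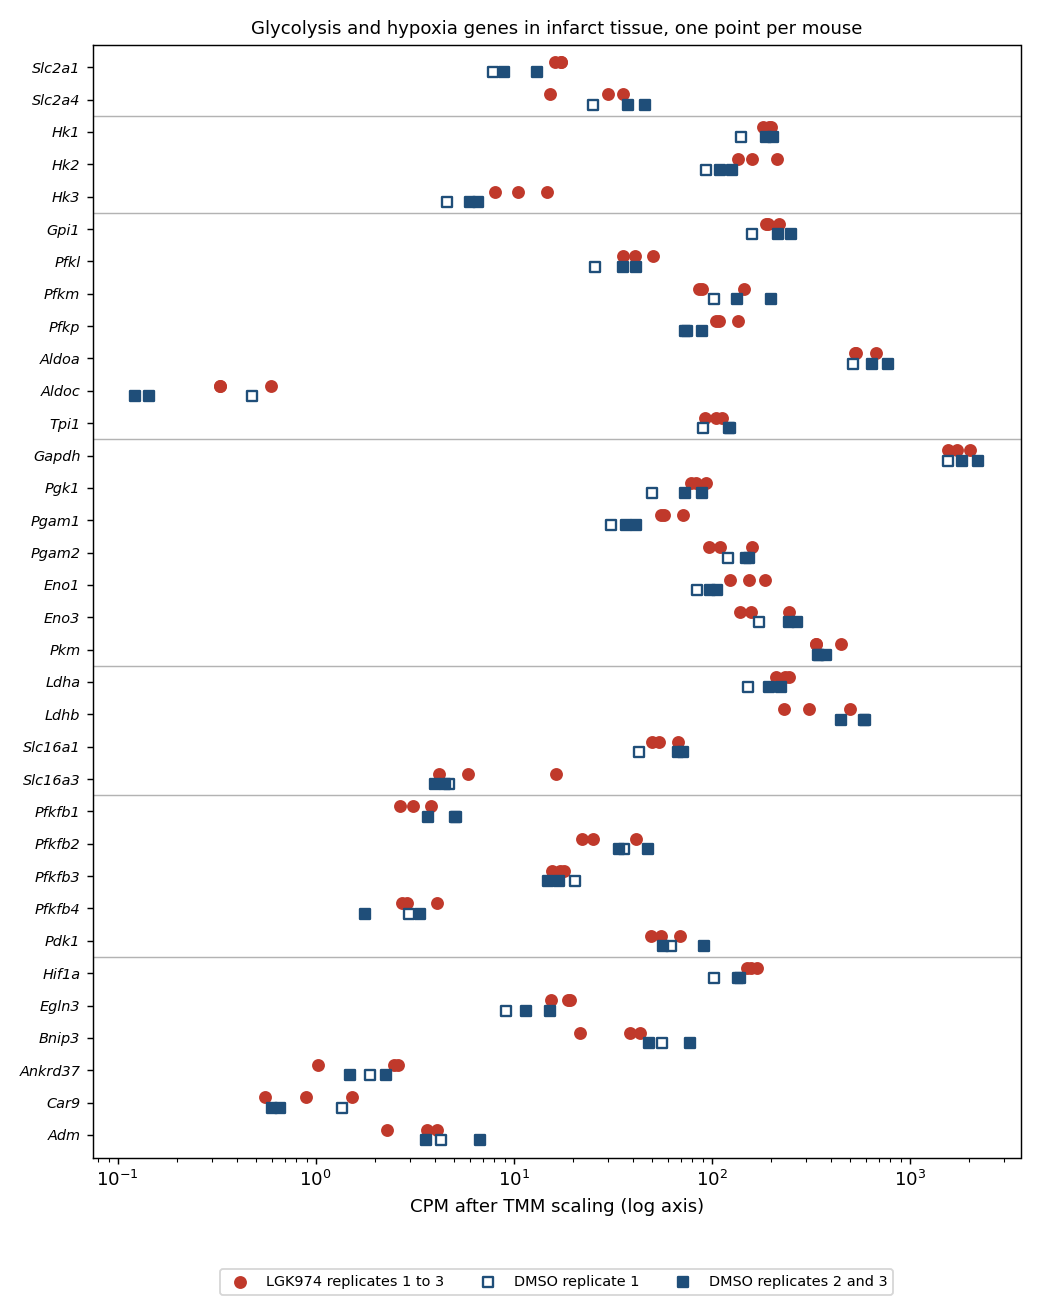
CPM (counts scaled by library size and TMM factor, log axis) of each of the 34 genes, one point per library, with LGK974 as red circles and DMSO as blue squares; the open square is DMSO replicate 1 and grey lines separate the roles. The LGK974 points of Slc2a1, Hk2, Hk3, Pfkp, Pgam1, Eno1, Hif1a and Egln3 all lie above the DMSO points, and those of Bnip3 all lie below them.

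Per length, in TPM, the share of transcripts after division by their length, Gapdh was the most abundant of the 34 genes in every library. This enzyme, which oxidises glyceraldehyde phosphate, made up 54.5 to 61.0% of the TPM summed over the 34 genes in a library. Aldoa, the aldolase of muscle and most other tissues, made up 6.72 to 8.58% of that sum. Of the 34 genes, 8 had a median above 100 TPM over the 6 libraries, in the order Gapdh, Aldoa, Ldhb, Gpi1, Pgam2, Pkm, Eno3 and Ldha. The ranges of neighbours in this order overlapped from Aldoa onward. At the other end, 11 genes had a median under 10 TPM, and the brain aldolase Aldoc was lowest with 0.0935 to 0.391 TPM. The TPM values of a library sum to a constant that includes mitochondrial transcripts, whose share differed between libraries, so the treatment was compared on CPM after TMM scaling.

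Glucose enters cells through Slc2a1 (GLUT1), the transporter of most cell types, and Slc2a4 (GLUT4), which insulin and contraction bring to the surface of muscle cells. Slc2a1, at chr4:119108711-119137983, measured 17.3, 16.2 and 17.4 CPM in LGK974 replicates 1 to 3 and 7.89, 8.90 and 13.1 CPM in DMSO replicates 1 to 3. The 3 treated libraries lay close together and above every control. Its log2 fold change was 0.77 ± 0.214 (SE, adjusted p = 0.368 by edgeR with Benjamini-Hochberg adjustment), and 0.64 without DMSO replicate 1, with an unadjusted p under 0.05 both times. Slc2a4 measured 15.2, 35.5 and 30.1 CPM with LGK974 and 25.1, 38.0 and 46.2 CPM with DMSO. These ranges overlapped, and the log2 fold change was -0.44 ± 0.340 (SE, adjusted p = 0.524 by edgeR), or -0.63 without DMSO replicate 1 and -0.15 without LGK974 replicate 1.

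Hexokinases trap glucose in the cell as glucose phosphate. Hk2, the hexokinase of insulin-responsive tissue and an inducible target of HIF-1, measured 135, 161 and 213 CPM with LGK974 and 94.2, 111 and 126 CPM with DMSO. Hk3, which is known mainly from myeloid cells, measured 10.6, 8.10 and 14.8 CPM with LGK974 and 4.60, 6.62 and 5.99 CPM with DMSO. In both genes the groups did not overlap. The log2 fold change was 0.62 ± 0.222 for Hk2 and 0.96 ± 0.271 for Hk3 (SE, adjusted p = 0.368 for each by edgeR), and without DMSO replicate 1 they were 0.53 and 0.84, with unadjusted p still under 0.05. Hk2 no longer had an unadjusted p under 0.05 with LGK974 replicate 2, LGK974 replicate 3 or DMSO replicate 2 left out, where its log2 fold change was 0.71, 0.48 and 0.68. Hk3 was counted in DMSO replicate 1 at only 2.01 times the median density of the receptor genes above. Hk1, the hexokinase of most tissues, measured 182 to 199 CPM under LGK974 and 140 to 205 CPM under DMSO, and its log2 fold change was 0.12 with all libraries and -0.01 without DMSO replicate 1.

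Phosphofructokinase commits glucose to glycolysis and exists as a muscle (Pfkm), a liver (Pfkl) and a platelet (Pfkp) isoform. Pfkp, at chr13:6579768-6648777, measured 136, 109 and 106 CPM with LGK974 and 73.6, 89.5 and 75.5 CPM with DMSO. All treated libraries were above all controls, with a log2 fold change of 0.56 ± 0.176 (SE, adjusted p = 0.368 by edgeR) and 0.53 without DMSO replicate 1. Its unadjusted p was over 0.05 without LGK974 replicate 1, at a log2 fold change of 0.43. Its exons share 748 bases with Pitrm1 on the other strand, a gene with 16.0 to 33.8% of the TPM of the pair, so part of its value is uncertain. Pfkm went the other way, with 86.4, 146 and 88.9 CPM under LGK974 against 103, 134 and 200 CPM under DMSO, and overlapped (log2 fold change -0.45 ± 0.308 SE, adjusted p = 0.482 by edgeR). Its difference was -0.63 without DMSO replicate 1 and -0.04 without DMSO replicate 3. Pfkl measured 35.5 to 50.5 CPM with LGK974 and 25.9 to 41.3 CPM with DMSO, with a log2 fold change of 0.30 ± 0.219 (SE, adjusted p = 0.498 by edgeR), or 0.15 without DMSO replicate 1.

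The remaining enzymes of the upper pathway differed by less than their spread. Gpi1, which turns glucose phosphate into fructose phosphate, Aldoa and the triose isomerase Tpi1 had log2 fold changes of -0.06, -0.15 and -0.11, with overlapping groups. Gpi1 shares sequence with Mrpl27, which held 14.1 to 19.9% of the TPM of the pair. Aldoc stayed between 0.123 and 0.597 CPM, with as few as 5 counts in a library. Its log2 fold change was 0.75, or 1.65 without DMSO replicate 1. In DMSO replicate 1 its count density was 0.241 times the receptor gene median, so no level above that background was measured there.

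Below the triose step Gapdh differed by less than its error, with 1566 to 2007 CPM under LGK974 and 1567 to 2222 CPM under DMSO and a log2 fold change of -0.09 ± 0.262 (SE). Pgk1, the first ATP-yielding kinase, had a log2 fold change of 0.27 ± 0.228 (SE, adjusted p = 0.553 by edgeR) and 0.10 without DMSO replicate 1. Its near-identical relative Gm5537 held 10.9 to 32.4% of the TPM of the pair, which leaves the level of Pgk1 uncertain. The phosphoglycerate mutases and the enolases, which follow, each come as a general and a muscle isoform.

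Pgam1, the mutase of most tissues, had the smallest unadjusted p of the 34 genes by edgeR, and it stayed under 0.05 with any 1 library left out. It measured 57.7, 55.5 and 71.3 CPM with LGK974 and 31.2, 41.4 and 37.0 CPM with DMSO. The lowest treated library exceeded the highest control, and the log2 fold change was 0.75 ± 0.178 (SE, adjusted p = 0.368 by edgeR) or 0.67 without DMSO replicate 1. Pgam2, the muscle mutase, measured 97.5, 161 and 110 CPM with LGK974 and 121, 149 and 154 CPM with DMSO. Its groups overlapped, with a log2 fold change of -0.20 ± 0.229 (SE, adjusted p = 0.657 by edgeR). Eno1, the enolase of most cells, measured 154, 124 and 186 CPM with LGK974 and 84.3, 107 and 98.7 CPM with DMSO. It was above the controls in all 3 treated libraries, with a log2 fold change of 0.68 ± 0.203 (SE, adjusted p = 0.368 by edgeR) and 0.61 without DMSO replicate 1. Eno3, the muscle enolase, measured 158, 247 and 139 CPM with LGK974 and 174, 245 and 269 CPM with DMSO, which overlapped (log2 fold change -0.34 ± 0.277 SE, adjusted p = 0.542 by edgeR).

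The last step makes pyruvate. Total Pkm measured 335, 338 and 452 CPM with LGK974 and 347, 379 and 343 CPM with DMSO, a log2 fold change of 0.07 ± 0.204 (SE). Pkm can include one of a pair of mutually exclusive exons of 167 bases each. The M1 exon gives the constitutively active enzyme of adult muscle and the M2 exon the regulated form of proliferating and immune cells. The exons are shown because the split of Pkm into its forms rests on them. They lie on the plus strand of GRCm38 at chr9:59675029-59675195 (M1) and chr9:59675568-59675734 (M2), they are identical at 61.7% of positions, and capitals mark the 64 positions at which they differ.
Pkm M1 exon: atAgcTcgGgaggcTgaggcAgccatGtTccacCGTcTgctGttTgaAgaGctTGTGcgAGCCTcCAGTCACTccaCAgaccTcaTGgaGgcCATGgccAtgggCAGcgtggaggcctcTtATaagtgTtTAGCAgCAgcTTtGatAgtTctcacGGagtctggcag
Pkm M2 exon: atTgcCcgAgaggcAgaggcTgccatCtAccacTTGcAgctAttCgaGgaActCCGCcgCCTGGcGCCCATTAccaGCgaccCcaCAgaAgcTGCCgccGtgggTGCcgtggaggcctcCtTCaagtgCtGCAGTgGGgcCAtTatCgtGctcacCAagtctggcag

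One annotated transcript of Pkm holds the M1 exon, 1 holds the M2 exon and 9 others hold neither. M1 made up 27.9, 36.2 and 34% of the M1 and M2 TPM in LGK974 replicates 1 to 3 and 33.4, 42.5 and 37.3% in DMSO replicates 1 to 3. The M2 transcript was the more abundant in all 6 libraries. The groups overlapped through DMSO replicate 1 alone, since the other 2 controls were above all treated libraries.

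Lactate dehydrogenase interconverts pyruvate and lactate, with Ldha as the form of glycolytic tissue and Ldhb as that of the heart, and Slc16a1 and Slc16a3 carry lactate across the membrane. Ldhb measured 312, 499 and 231 CPM with LGK974 and 590, 448 and 596 CPM with DMSO. LGK974 replicate 2 lay inside the control range and the other 2 treated libraries lay below it, and the log2 fold change was -0.65 ± 0.311 (SE, adjusted p = 0.372 by edgeR). Without LGK974 replicate 2 it was -0.93 and its unadjusted p was under 0.05, whereas without LGK974 replicate 3 it was -0.36 and without DMSO replicate 1 it was -0.57. Ldha measured 211, 245 and 235 CPM with LGK974 and 152, 224 and 195 CPM with DMSO, with a log2 fold change of 0.28 ± 0.202 (SE, adjusted p = 0.501 by edgeR), or 0.16 without DMSO replicate 1. Slc16a3 (MCT4), the exporter of strongly glycolytic cells, measured 5.89, 4.20 and 16.3 CPM with LGK974 and 4.73, 4.51 and 4.03 CPM with DMSO. Its log2 fold change of 0.99 ± 0.479 (SE, adjusted p = 0.373 by edgeR) rested on LGK974 replicate 3, without which it was 0.27, whereas without LGK974 replicate 2 it was 1.39 with an unadjusted p under 0.05. In DMSO replicate 1 the count density of Slc16a3 was only 1.53 times the receptor gene median. Slc16a1 (MCT1) had a log2 fold change of -0.08 ± 0.230 (SE).

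Of the 5 regulators, 0 reached an unadjusted p under 0.05 by edgeR. Pfkfb1 to Pfkfb4 are bifunctional enzymes that set the fructose bisphosphate signal to phosphofructokinase, and Pdk1 shuts pyruvate dehydrogenase off. Pfkfb1 measured 2.66 to 3.83 CPM with LGK974 and 3.71 to 5.09 CPM with DMSO (log2 fold change -0.53 ± 0.278 SE, adjusted p = 0.393 by edgeR). Pfkfb2, Pfkfb3, Pfkfb4 and Pdk1 had log2 fold changes of -0.40, -0.04, 0.27 and -0.27, with overlapping groups. Pfkfb2 came to -0.67, with an unadjusted p under 0.05, without LGK974 replicate 2, and 14.4 to 27.7% of the TPM of Pfkfb2 and its overlapping neighbour Yod1 belonged to Yod1.

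Among the 6 hypoxia genes the directions were split. Hif1a, the oxygen-regulated subunit itself, measured 158, 152 and 170 CPM with LGK974 and 103, 139 and 136 CPM with DMSO. The groups did not overlap, although the log2 fold change of 0.35 ± 0.182 (SE) did not reach an unadjusted p under 0.05 (adjusted p = 0.392 by edgeR) and was 0.24 without DMSO replicate 1. Egln3, the prolyl hydroxylase that marks HIF-α for degradation and is itself induced by HIF, measured 15.4, 18.7 and 19.2 CPM with LGK974 and 9.17, 11.5 and 15.3 CPM with DMSO. Its lowest treated value and highest control value nearly met, and the log2 fold change was 0.57 ± 0.218 (SE, adjusted p = 0.368 by edgeR) with all libraries and 0.42 without DMSO replicate 1. Its unadjusted p was over 0.05 without DMSO replicate 1, and also without DMSO replicate 2 (0.58), LGK974 replicate 2 (0.58) or LGK974 replicate 3 (0.57).

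Bnip3, which sits on the mitochondrial membrane and targets mitochondria for removal, measured 38.8, 43.7 and 21.5 CPM with LGK974 and 55.9, 48.4 and 77.4 CPM with DMSO. It was the only one of the 34 genes with every treated library below every control, and its log2 fold change was -0.80 ± 0.295 (SE, adjusted p = 0.368 by edgeR) or -0.84 without DMSO replicate 1. The difference was smaller without LGK974 replicate 3 (-0.49) or DMSO replicate 3 (-0.47), with an unadjusted p over 0.05 both times. The unadjusted p was also over 0.05 with totals without mitochondrial genes (-0.61) or counts scaled from TPM (-0.86). Bnip3 shares 504 exon bases with the antisense gene Gm45507. The vasodilator peptide gene Adm, the HIF target Ankrd37 and the carbonic anhydrase Car9 had log2 fold changes of -0.55, 0.11 and 0.19, with overlapping groups. Car9 did not exceed 1.53 CPM in any library, and its density in DMSO replicate 1 was 0.945 times the receptor gene median. Without DMSO replicate 1 its log2 fold change was 0.665.

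**Figure D2:**
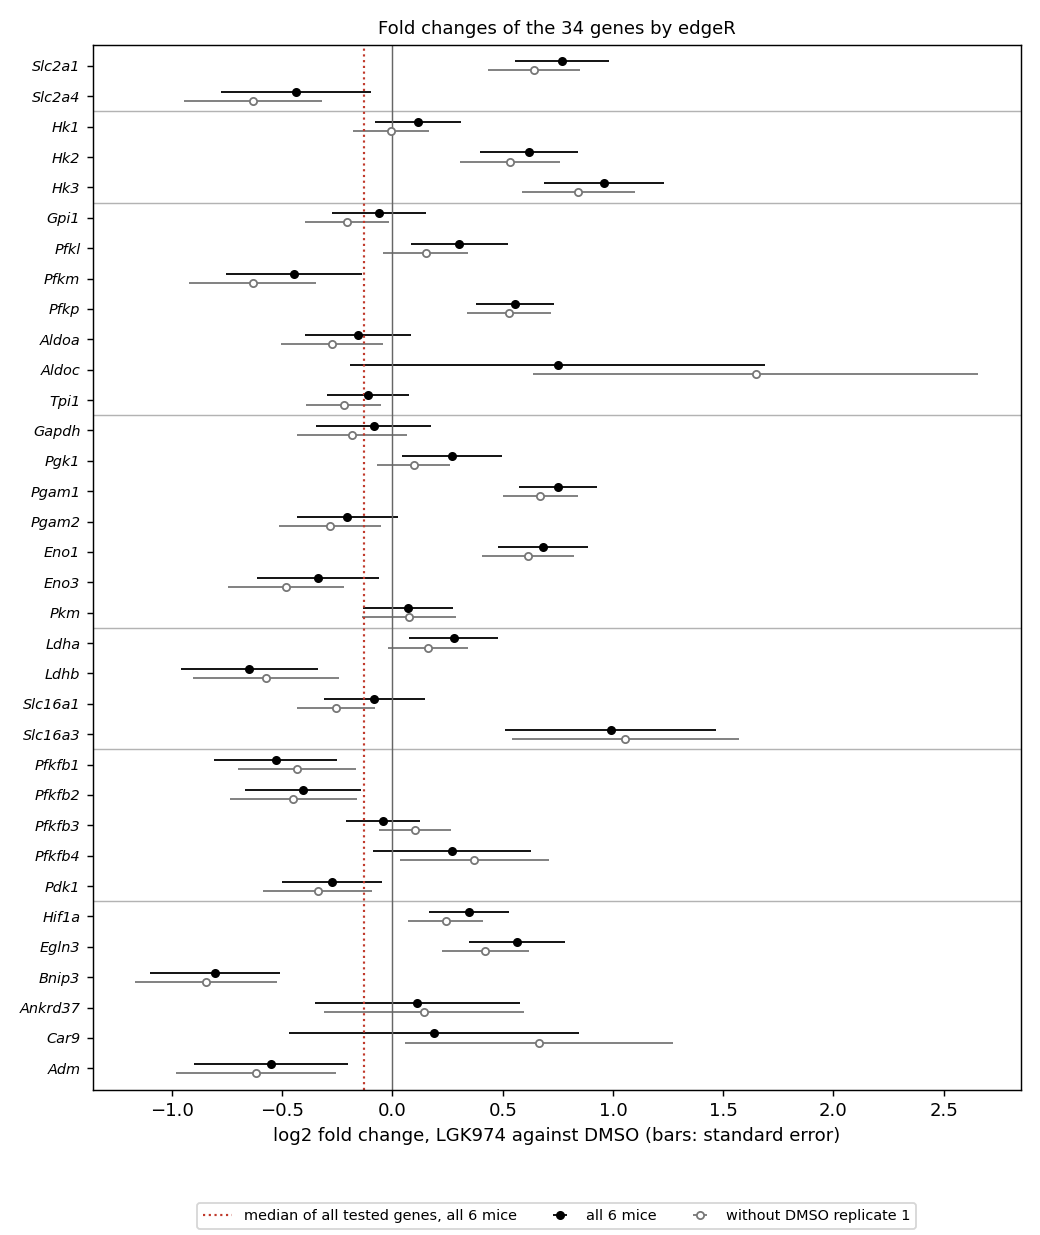
log2 fold change of LGK974 against DMSO by edgeR for the 34 genes, with all 6 libraries (filled) and without DMSO replicate 1 (open); bars are standard errors and the dotted line is the median of all tested genes at -0.13. Pgam1 (0.75) and Slc2a1 (0.77) lie to the right with short bars, Bnip3 (-0.80) lies farthest left, and the bar of Aldoc is the longest.

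The promoters of these genes were searched for the cores ACGTG and GCGTG on both strands, in the 300 bases from 250 before to 50 after each RefSeq start on GRCm38.p6. The table held 51 promoters for 33 of the 34 genes, Slc2a4 having no entry. ACGTG occurred in 49.0% of them against 19.6% of 32851 promoters in the table, and either core in 78.4% against 43.8%. Part of the list was chosen as hypoxia-inducible, and some windows of the same gene overlap. The difference was not tested. The sequences below are those of the mutases, of which the general form was higher at an unadjusted p under 0.05 and the muscle form was not, and of the 2 hypoxia genes that moved in opposite directions at an unadjusted p under 0.05. They are printed 5′ to 3′ on the gene's strand, with matches in capitals: Pgam1 at chr19:41911621-41911920 (plus), Pgam2 at chr11:5803747-5804046 (minus), Egln3 at chr12:54203825-54204124 (minus) and Bnip3 at chr7:138909457-138909756 (minus).
Pgam1 promoter: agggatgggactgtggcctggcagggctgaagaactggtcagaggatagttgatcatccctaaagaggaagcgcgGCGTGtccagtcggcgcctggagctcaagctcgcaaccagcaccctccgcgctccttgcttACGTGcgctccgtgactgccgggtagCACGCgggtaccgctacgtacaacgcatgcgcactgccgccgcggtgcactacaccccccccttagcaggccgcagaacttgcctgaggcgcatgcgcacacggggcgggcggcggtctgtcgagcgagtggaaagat
Pgam2 promoter: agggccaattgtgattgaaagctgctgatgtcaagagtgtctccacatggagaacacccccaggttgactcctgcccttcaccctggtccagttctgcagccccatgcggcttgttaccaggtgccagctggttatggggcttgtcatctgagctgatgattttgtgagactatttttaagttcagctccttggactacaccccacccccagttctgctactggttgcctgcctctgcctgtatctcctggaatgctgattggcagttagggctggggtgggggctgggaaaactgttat
Egln3 promoter: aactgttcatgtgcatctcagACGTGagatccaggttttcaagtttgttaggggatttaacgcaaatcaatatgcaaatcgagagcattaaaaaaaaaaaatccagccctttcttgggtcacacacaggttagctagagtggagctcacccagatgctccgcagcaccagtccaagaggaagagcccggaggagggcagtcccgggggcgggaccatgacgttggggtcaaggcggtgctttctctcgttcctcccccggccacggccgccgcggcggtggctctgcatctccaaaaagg
Bnip3 promoter: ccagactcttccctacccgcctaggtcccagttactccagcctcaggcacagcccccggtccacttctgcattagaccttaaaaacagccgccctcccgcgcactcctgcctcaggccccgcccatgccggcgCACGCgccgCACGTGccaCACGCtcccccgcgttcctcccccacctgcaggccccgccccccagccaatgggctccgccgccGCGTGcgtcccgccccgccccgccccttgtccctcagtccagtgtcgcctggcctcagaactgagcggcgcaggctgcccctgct

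The Pgam1 window held 1 match to ACGTG and 2 to GCGTG, and the Pgam2 window held 0. Egln3 held 1 match to ACGTG, and Bnip3 held 2 to ACGTG and 3 to GCGTG. The palindrome CACGTG counts as a match on each strand, and both ACGTG matches of Bnip3 come from 1 such stretch. Bnip3, with 5 matches, was lower with LGK974, and Egln3, with 1, was higher.

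The isoform pairs were also compared as ratios within a library, which need no scaling between libraries. In TPM, Pfkm over the sum of Pfkl and Pfkp was 0.326, 0.634 and 0.408 with LGK974 and 0.658, 0.753 and 1.26 with DMSO. Pgam2 over Pgam1 was 4.08, 6.96 and 3.73 with LGK974 and 9.49, 8.63 and 10.1 with DMSO. Slc2a4 over Slc2a1 was 1.08, 3.28 and 2.79 with LGK974 and 4.19, 5.86 and 5.53 with DMSO. For these 3 ratios every treated library was below every control. The log2 differences, LGK974 minus DMSO, were -0.96 ± 0.40, -0.99 ± 0.289 and -1.26 ± 0.521 (SE), each with p = 0.1 by an exact two-sided permutation test, the smallest p that 3 against 3 allows, and 0.2 after adjustment over the 6 ratios. The difference for Slc2a4 over Slc2a1 was -0.77 without LGK974 replicate 1.

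Eno3 over Eno1 was 1.40, 2.72 and 1.04 with LGK974 and 2.61, 2.86 and 3.54 with DMSO. Ldhb over Ldha was 1.80, 2.49 and 1.2 with LGK974 and 4.84, 2.37 and 3.67 with DMSO. In both, LGK974 replicate 2 reached into the control range. Their log2 differences were -0.91 ± 0.430 and -0.99 ± 0.428 (SE, p = 0.2 each by the exact two-sided permutation test). The M1 over M2 ratio of Pkm differed least, by -0.32 ± 0.232 (SE, p = 0.3 by the exact two-sided permutation test). Without DMSO replicate 1, the 6 differences were -1.15 (Pfk), -0.98 (Pgam), -1.41 (Slc2a), -1.01 (Eno), -0.75 (Ldh) and -0.46 (Pkm), where 0.2 is the smallest exact p possible. That of Pkm was -0.16 without LGK974 replicate 1 and -0.18 without DMSO replicate 2.

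**Figure D3:**
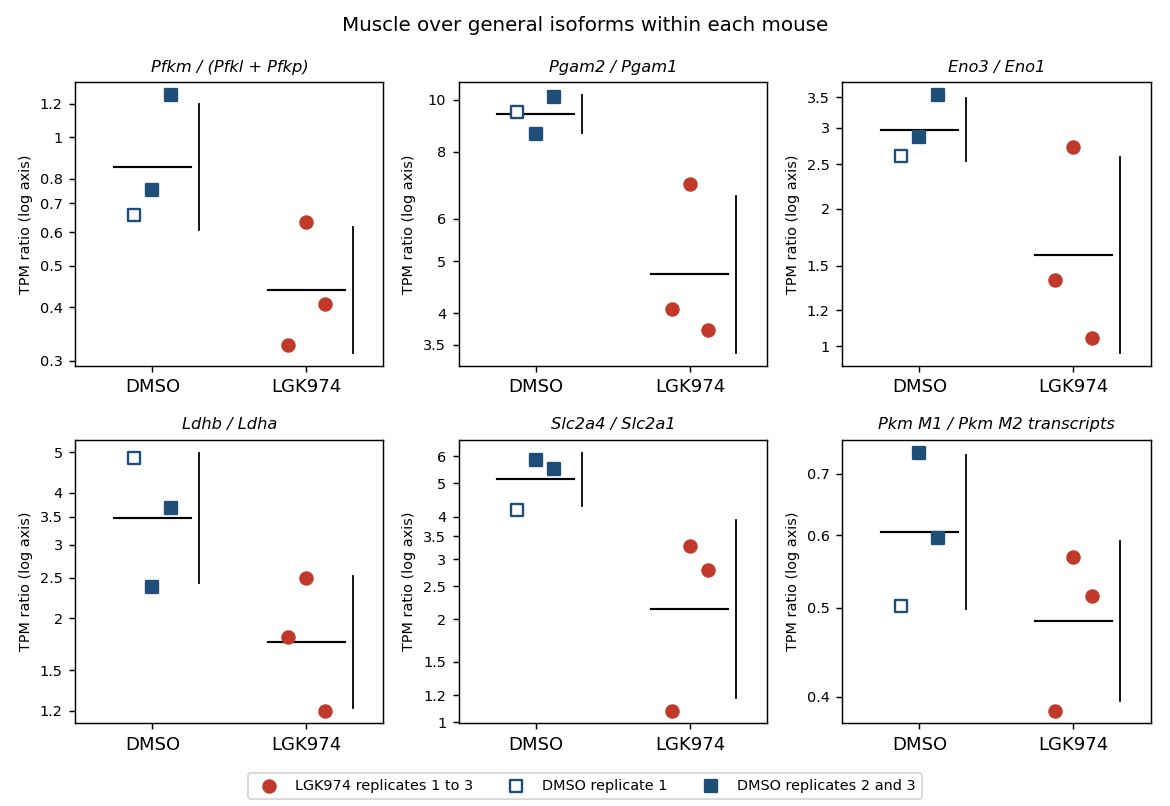
Ratio of muscle to general isoform in TPM (log axis) in each library for 6 steps; points are libraries, the open square is DMSO replicate 1, horizontal bars are group means on the log2 scale and vertical bars are 1 SD. The LGK974 points lie below all DMSO points for Pfk, Pgam and Slc2a, while for Eno, Ldh and Pkm at least 1 treated library lies within the control range.

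The isoforms were also taken as lists, with Ldhb, the form of the heart, counted among the muscle forms. The 5 muscle forms (Slc2a4, Pfkm, Pgam2, Eno3, Ldhb) all had negative log2 fold changes, with a median of -0.44. Of these, 0 reached an unadjusted p under 0.05 by edgeR. The 6 general forms (Slc2a1, Pfkl, Pfkp, Pgam1, Eno1, Ldha) all had positive ones, with a median of 0.62, and 4 reached it, where 6.26% of all tested genes did so in that direction. Without DMSO replicate 1 the medians were -0.57 and 0.57. The median of the muscle forms was -0.10 without DMSO replicate 3, -0.25 without LGK974 replicate 1 and -0.28 without LGK974 replicate 3. It was -0.27 with totals without mitochondrial genes and -0.29 with counts scaled from TPM. The hexokinases were in neither list and did not follow the same directions. Hk2, the form of insulin-responsive tissue, had a log2 fold change of 0.62, or 0.53 without DMSO replicate 1. That of Hk1, the form of most tissues, was 0.12, or -0.01 without DMSO replicate 1.

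Marker levels of several cell types differed between the groups. Of all tested genes, 6.26% were higher and 7.18% lower at an unadjusted p under 0.05 by edgeR. Cardiomyocyte markers, 15 in all and 0 of them absent from any library, summed to 22390 to 32480 CPM with LGK974 and 29070 to 38900 CPM with DMSO, and 14 of 15 were lower, with a median log2 fold change of -0.46 (-0.55 without DMSO replicate 1). At an unadjusted p under 0.05 by edgeR 1 was lower, Tcap (-0.73), and 1 was higher, Actc1 (0.86), an actin that lay above all controls in every treated library. Without DMSO replicate 1, 3 were lower and 1 was higher, against 3.35% and 6.67% of all genes. Tnnt2 and Myh6, the most abundant per length, had log2 fold changes of -0.42 and -0.47. Leukocyte markers summed to 692.6 to 896.3 CPM with LGK974 and 360.6 to 456.1 CPM with DMSO, and all 14 were higher, 13 of them at an unadjusted p under 0.05 by edgeR, with a median of 0.92 (0.83 without DMSO replicate 1). Lyz2 and Ctss, of myeloid lysosomes, had log2 fold changes of 1.3 and 1.09. The paper's cell counts went the other way. By flow cytometry at the same time after injury it reported fewer leukocytes, myeloid cells and inflammatory monocytes with the drug. Those counts came from whole hearts of other mice and the values here are RNA of the infarct area, and the difference was not tested. Fibroblast markers summed to 3913 to 6208 CPM with LGK974 and 1974 to 3059 CPM with DMSO, with 11 of 12 higher, 5 of them at an unadjusted p under 0.05 by edgeR, and a median of 0.54 (0.38 without DMSO replicate 1). Col3a1, a fibrillar collagen, had a log2 fold change of 1.14, and Dcn, a matrix proteoglycan, one of 0.01. None of the leukocyte or fibroblast markers was at 0 in a library. In such tissue fewer cells of a type and less RNA per cell cannot be told apart, and the part of the cell mixture in the differences of the 34 genes was not tested.

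The other marker lists followed no single direction or held little RNA. Endothelial markers had a median log2 fold change of 0.03 over 10 genes (-0.05 without DMSO replicate 1), with 0.01 for Cdh5 and 0.04 for Pecam1, and none was at 0 in a library. Markers of skeletal muscle, which also uses Slc2a4, Pfkm, Pgam2 and Eno3, summed to 32.6 to 40.0 CPM with LGK974 and 21.9 to 26.9 CPM with DMSO. Of 11 tested, 5 were higher and 6 lower, with a median log2 fold change of -0.72 (-0.50 without DMSO replicate 1). At an unadjusted p under 0.05 by edgeR 2 were higher, Myl1 (0.97) and Tnnt3 (1.57), and 2 were lower, the fast myosins Myh1 (-1.70) and Myh2 (-3.75), which did not exceed 3.92 CPM in any library. Of all genes, 6.26% were higher and 7.18% lower at it. Without DMSO replicate 1, 0 were lower at that threshold. Of the 12 listed, 4 were at 0 in some library. Of 6 neutrophil markers tested, 3 were higher and 3 lower (S100a8 0.08, S100a9 0.21), and 4 of the 10 listed were at 0 in some library. Their median log2 fold change was 0.015 (0.061 without DMSO replicate 1). At an unadjusted p under 0.05 by edgeR 1 was lower, Cxcr2 (-1.025), and 0 were higher. Without DMSO replicate 1, Cxcr2 (-0.273) was no longer under it and 1 was higher, Mmp8 (1.636). Of all genes, 6.67% were then higher and 3.35% lower. Erythroid markers (Hba-a2 0.27, Hbb-bt 0.02) summed to 13 to 18 CPM and adipocyte markers (Adrb3 -1.17, Retn -0.84) to 2.24 to 8.65 CPM over the 6 libraries. Their medians were -0.07 and -1.0, or -0.18 and -0.39 without DMSO replicate 1.

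Set against the summed TPM of cardiomyocyte markers, a description chosen after the values had been seen, the 5 muscle forms overlapped between groups, with log2 differences from -0.31 (Ldhb) to 0.20 (Pgam2). Without DMSO replicate 1 these were -0.16 (Ldhb) and 0.14 (Pgam2), and that of Slc2a4 was -0.26 in place of 0.10. Bnip3 overlapped as well, with a difference of -0.49 (-0.60 without DMSO replicate 1). Against the leukocyte markers, Hk3 (0.09) and Slc2a1 (-0.08) overlapped, with 0.01 and -0.21 without DMSO replicate 1. Pgam1 measured 68.4, 69.2 and 70.4 TPM per 1000 TPM of leukocyte markers with LGK974 and 84.2, 83.4 and 79.7 with DMSO, so on this scale every treated library was below every control. Eno1 was lower on this scale too, with 167, 145 and 171 against 229, 213 and 210 TPM per 1000 TPM. Pfkp overlapped, with a log2 difference of -0.54 (-0.36 without DMSO replicate 1). The leukocyte markers themselves were higher with LGK974, with a median log2 fold change of 0.92. A gene that rose by less therefore comes out lower on this scale. How many of all genes do so was not counted, so these are not results about Pgam1 or Eno1.

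**Figure D4:**
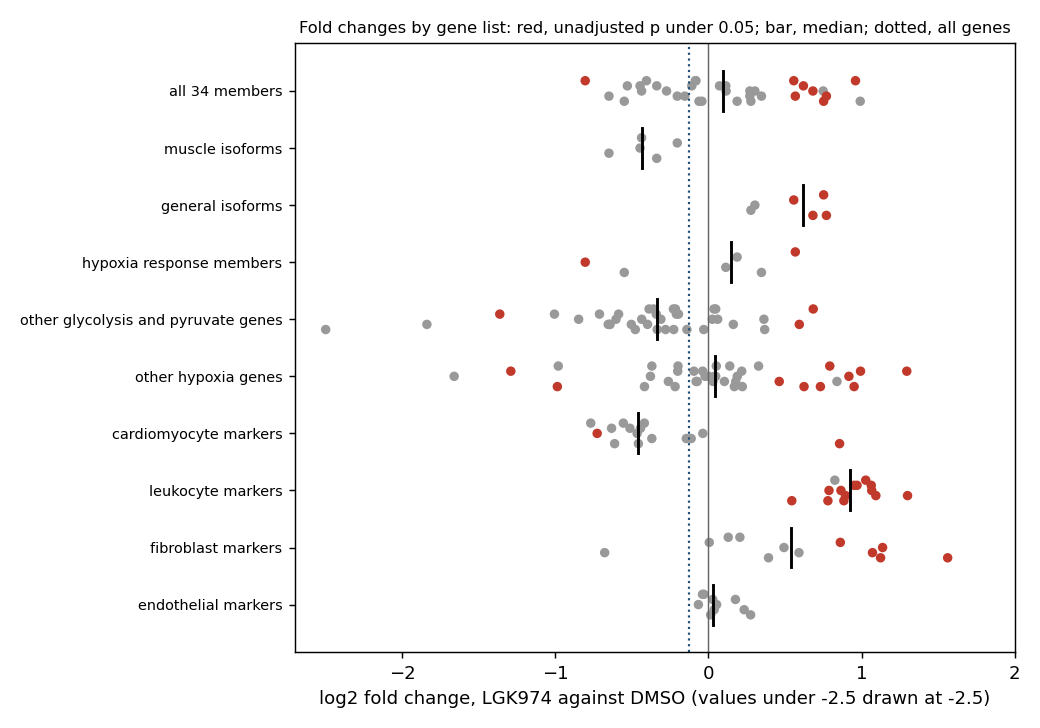
log2 fold change of LGK974 against DMSO for each tested gene of 10 lists; points are genes (values under -2.5 are drawn at -2.5), red where the unadjusted p by edgeR was under 0.05, black bars are list medians and the dotted line is the median of all tested genes (-0.13). The medians were -0.44 for muscle isoforms, -0.46 for cardiomyocyte markers, 0.62 for general isoforms, 0.54 for fibroblast markers and 0.92 for leukocyte markers. Without DMSO replicate 3 the median of the muscle isoforms was -0.10. The part of the cell mixture in these differences was not tested.

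Beyond the 34 genes, 37 of 39 further genes of glycolysis, pyruvate entry and neighbouring sugar pathways were tested. Their median log2 fold change was -0.34, with 28 lower and 9 higher, where 11964 of all 20094 genes were lower. At an unadjusted p under 0.05 by edgeR 2 were higher and 1 lower, against 6.26% and 7.18% of all genes. With all 6 libraries the calls were thus no more frequent than in the background. Pdk4, the kinase that holds pyruvate out of mitochondria when muscle burns fat, measured 69.9, 84.8 and 34.3 CPM with LGK974 and 154, 142 and 190 CPM with DMSO. All treated libraries were far below all controls, with a log2 fold change of -1.36 ± 0.327 (SE, adjusted p = 0.368 by edgeR) and -1.38 without DMSO replicate 1. The higher pair were Pgm2 (0.59) and G6pdx (0.68), which work in sugar phosphate exchange and the pentose phosphate entry. Without DMSO replicate 1, 2 were higher and 4 lower, against 6.67% and 3.35% of all genes, so the lower calls were then more frequent than in the background.

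Of 39 further hypoxia genes, 38 were tested, with 8 higher and 2 lower at an unadjusted p under 0.05 by edgeR (6.26% and 7.18% of all genes) and a median log2 fold change of 0.04. The 4 higher genes with the smallest p were Hmox1, Anxa2, Loxl2 and P4ha1. Hmox1, which degrades heme and is made by macrophages, measured 96.7, 91.1 and 123 CPM with LGK974 and 46.9, 57.0 and 57.0 CPM with DMSO (log2 fold change 0.95 ± 0.183 SE). Anxa2 (0.92), the collagen crosslinker Loxl2 (1.29) and the collagen prolyl hydroxylase P4ha1 (0.79) also lay above all controls in every treated library. The 2 lower genes were Ddit4, a stress-induced brake on mTOR (-0.99), and Hif3a, a HIF subunit that can oppose HIF-1 (-1.29). Hif3a had an unadjusted p over 0.05 without DMSO replicate 1, and 6 higher and 1 lower of the list then remained under the threshold.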

How the data were processed

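RNA of the infarct area was sequenced for 3 LGK974 and 3 DMSO mice, and the groups come from the sample labels. The authors made the deposited files with Kallisto on Ensembl transcripts of GRCm38, and each library holds an estimated count and a TPM value (scaled for length and to a fixed sum) for 118489 transcripts. The labels name both ribosomal depletion and a capture kit. Kallisto's version and read trimming are not given in the sources used here. Transcripts were joined to GENCODE genes (98.6% joined), the estimated counts of a gene's transcripts were added and rounded, and reads divided between near-identical genes stay divided.

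Genes with at least 10 counts in 3 libraries were tested with edgeR 4.0.16 (R 4.3.3), using TMM scaling and the quasi-likelihood test with treatment as the only factor, with Benjamini-Hochberg adjustment over all genes at 0.05. DESeq2 1.42.0 and limma 3.58.1 were alternatives, and the tests were checked on simulated data. Isoform ratios used the deposited TPM and exact two-sided permutation tests. Near-identical sequence was searched with BLAST 2.17.0 (95% over 100 bases). Depth ranged from 41579787 to 80398211 counts, so the number of mice limits precision more than counting, except for genes of few counts. All 34 genes were named. Of the further pathway genes up to 4 per direction with the smallest unadjusted p under 0.05 were named, and of each marker list the 2 with the highest mean TPM. Other markers were chosen after their values were seen (Actc1, Tcap, Myh1, Myh2, Cxcr2 and Mmp8). The 34 genes and all lists were chosen with earlier results of these data known.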

Additional observations from a re-analysis of the deposited data

How the results depend on the processing

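Members under an adjusted p of 0.05 numbered 2 without the filter on low counts (Hk3 and Slc16a3), 1 by DESeq2 (Pgam1) and 0 otherwise. By DESeq2 1.23% of all genes passed. For most settings in this paragraph the share of all genes is not given, so the counts are not results about the members alone. The median log2 fold change of all genes was -0.548 without the filter and -0.746 by DESeq2. Members lower at an unadjusted p under 0.05 numbered 0 with totals without mitochondrial genes or counts scaled from TPM, 2 with the replicate block or DESeq2, 4 with limma-voom, and 0 to 3 with 1 library left out; higher members numbered 5 to 8 throughout. Whether the replicate numbers pair the mice could not be settled. Deviations from the group mean correlated at 0.475, -0.048 and 0.391 between same-number libraries, and at -0.518 to 0.1 between the others. Other glycolysis genes numbered 6 without the filter, 7 with the block or DESeq2, 15 with limma-voom and 1 to 7 with 1 library left out, and other hypoxia genes 5 to 8. Totals without mitochondrial genes moved the median of all genes from -0.13 to 0.08 and that of the members to 0.295. The members' median was -0.041 at a minimum of 50 counts and -0.034 by limma-voom. The general isoforms' median was 0.82 with those totals, 0.76 without the filter and 0.56 to 0.76 with 1 library left out. The causes were not tested.

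In all 14 alternatives 21 of the 34 genes kept 1 sign, including the 8 under an unadjusted p of 0.05, and the 6 isoform ratios kept theirs in every alternative run on them. Signs turned for genes near 0. With totals without mitochondrial genes Gpi1 was 0.12, Aldoa 0.029, Tpi1 0.079, Gapdh 0.10, Slc16a1 0.092 and Pfkfb3 0.19. Without the filter Gpi1 was 0.058, Tpi1 0.019, Gapdh 0.042, Slc16a1 0.035 and Pfkfb3 0.13. By limma-voom Hk1 was -0.029, Pgk1 -0.011, Pkm -0.06, Pfkfb3 0.12 and Pfkfb4 -0.039. With 1 library left out, Hk1 ranged from -0.007 to 0.29, Gpi1 from -0.21 to 0.20, Aldoa from -0.28 to 0.11, Tpi1 from -0.22 to 0.072, Gapdh from -0.18 to 0.17, Pkm from -0.014 to 0.21, Slc16a1 from -0.26 to 0.11, Pfkfb3 from -0.065 to 0.10, Pdk1 from -0.36 to 0.076, Ankrd37 from -0.058 to 0.50 and Car9 from -0.19 to 0.67.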
